A study of Mus musculus with 12 samples.

Results

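The Tdpoz family was described here as the 5 genes whose GENCODE M21 symbol starts with Tdpoz (Tdpoz1, Tdpoz2, Tdpoz3, Tdpoz4 and Tdpoz5), out of 55266 genes in the count tables. Each gene's transcript counts were added up, and the genes were followed singly and as a sum. Of the 5, 4 entered the tests, which covered the 19384 genes that reached 10 counts in 2 or more libraries. Tdpoz1 stayed below that limit. The study treated E14 mouse embryonic stem cells with sorbitol for 0, 6 or 24 h and sequenced total RNA from cells sorted by flow cytometry as tbGFP-positive or tbGFP-negative. All 12 libraries carried the 2C::3xtbGFP genotype, a green fluorescent reporter read out at the sort, and all cells had been plated without the 2 kinase inhibitors used for expansion and collected after 48 h of culture. The 6 groups (each fraction at 0, 6 and 24 h) held 2 libraries each, and cells cultured for the added 6 or 24 h in the absence of sorbitol are not among them. The sort came after the treatment, the promoter driving the reporter is not named in the labels, and the labels do not say whether the 2 libraries of a group were separate cultures, so p-values speak only of spread among these libraries, a spread that may be technical.

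Tdpoz proteins carry a TRAF-type (MATH) domain followed by a BTB/POZ domain, the same order as in Spop, an adaptor through which cullin-3 ubiquitin ligases bind their substrates. The genes lie in a cluster of near-identical copies and are known for transcripts in oocytes and early mouse embryos. A small share of embryonic stem cells in culture passes through a state that resembles the 2-cell embryo, in which Dux, Zscan4 genes and endogenous retroviral transcripts are switched on, and 2C reporters are built to mark such cells.

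All 5 genes lie on chromosome 3 (GRCm38, the assembly of mm10). Tdpoz2 (ENSMUSG00000103362.1) spans chr3:93651542-93652686 on the minus strand and Tdpoz1 (ENSMUSG00000094084.2) chr3:93669333-93676310 on the minus strand. Tdpoz4 (ENSMUSG00000060256.1) spans chr3:93796398-93797510 and Tdpoz3 (ENSMUSG00000058005.3) chr3:93826020-93827117, both on the plus strand, and Tdpoz5 (ENSMUSG00000094163.1) spans chr3:93960292-93961314 on the minus strand. The first 90 coding bases of the GENCODE transcripts are shown because they hold both bases that the 5 members share and bases at which they differ. Capitals mark bases that differ from Tdpoz3, the most abundant member.
Tdpoz1: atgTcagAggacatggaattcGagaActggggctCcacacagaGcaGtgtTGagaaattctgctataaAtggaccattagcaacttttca
Tdpoz2: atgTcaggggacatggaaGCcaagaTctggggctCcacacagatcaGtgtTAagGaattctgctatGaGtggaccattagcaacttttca
Tdpoz3: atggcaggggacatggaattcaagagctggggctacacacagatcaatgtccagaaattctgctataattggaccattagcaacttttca
Tdpoz4: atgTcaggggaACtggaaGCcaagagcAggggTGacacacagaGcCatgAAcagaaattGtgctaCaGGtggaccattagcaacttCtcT
Tdpoz5: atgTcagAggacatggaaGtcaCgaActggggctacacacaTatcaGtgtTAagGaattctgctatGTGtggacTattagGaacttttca
Within these 90 bases Tdpoz1 differed from Tdpoz3 at 10 positions, Tdpoz2 at 11, Tdpoz5 at 15 and Tdpoz4 at 18. Over the whole coding sequences, which are 1023 to 1113 bases long, identity between members ran from 71.81% (Tdpoz4 and Tdpoz5) to 88.07% (Tdpoz1 and Tdpoz3).

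The members were easier to tell from each other than from other genes of the cluster. At most 0.1% of the 75-base windows of a member were found in another member, but 19.9% of those of Tdpoz4, 32.3% of Tdpoz1, 33.1% of Tdpoz2, 54.5% of Tdpoz3 and 100.0% of Tdpoz5 were found in some other gene. Tdpoz5 is identical over its length to Gm10697, which RefSeq calls Tdpoz7, and the counts of Tdpoz5 and Gm10697 stayed close to each other, at 928 and 943 over the 12 libraries. Reads of these copies cannot be told apart by sequence, so the values of Tdpoz5 are uncertain. For the other members, shares of 11.6% (Tdpoz4) to 46.7% (Tdpoz3) remained even for windows of 100 bases, and how the counting treated reads with several matches is not given in the sources used here. Counts of Tdpoz3 were 46459 against 9365 for its closest copy, Gm4982 (99.0% identical), and those of Tdpoz4 were 26693 against 13290 for Gm5541 (97.3% identical). Tdpoz2 had 955 counts and its closest copy Gm5773 (97.9% identical) had 3530.

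RefSeq (GRCm38.p6) gave a window of 250 bases before to 50 bases after the gene start for 3 of the 5 members, Tdpoz1, Tdpoz4 and Tdpoz5. The upstream bases are shown to describe how alike these genes of the same cluster are before their starts. With no window for Tdpoz2 and Tdpoz3, they cannot be set against differences in level. The runs, all 5' to 3' on the gene's strand, come from chr3:93676311-93676533 (minus) for Tdpoz1, chr3:93796148-93796359 (plus) for Tdpoz4 and chr3:93961349-93961564 (minus) for Tdpoz5. Capitals mark the motif TATATAA in Tdpoz1, and the motif TTTTCAG in Tdpoz4 and Tdpoz5.
Tdpoz1: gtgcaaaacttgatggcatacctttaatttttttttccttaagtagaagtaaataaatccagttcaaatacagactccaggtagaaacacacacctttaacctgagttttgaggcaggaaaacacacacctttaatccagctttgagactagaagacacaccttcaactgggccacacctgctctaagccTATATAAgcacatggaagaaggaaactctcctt
Tdpoz4: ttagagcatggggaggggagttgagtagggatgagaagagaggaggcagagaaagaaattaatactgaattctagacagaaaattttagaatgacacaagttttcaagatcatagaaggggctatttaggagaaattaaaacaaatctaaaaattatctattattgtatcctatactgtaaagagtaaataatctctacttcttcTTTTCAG
Tdpoz5: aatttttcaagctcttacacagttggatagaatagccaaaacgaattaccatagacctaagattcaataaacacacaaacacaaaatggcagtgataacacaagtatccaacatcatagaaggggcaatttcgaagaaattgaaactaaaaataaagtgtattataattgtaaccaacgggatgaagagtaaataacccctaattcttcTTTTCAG
TATATAA began 60 bases before the RefSeq start of Tdpoz1 and was present on the gene's strand in 2.05% of the 32851 windows (3.04% on either strand). That RefSeq start lies inside the GENCODE gene. The run of Tdpoz1 ends directly before the GENCODE gene, 27 bases short of the RefSeq start, so the motif is nearer to the GENCODE start. TTTTCAG began 45 bases before the start of Tdpoz4 and 41 before that of Tdpoz5, and was present on the gene's strand in 2.87% of the windows (5.5% on either strand). The same 7 letters stand directly before an annotated exon of a related gene, exon 2 of a transcript of Gm4858 (Tdpoz8 in RefSeq), which starts at position 93073486 of chromosome 3. The 250 upstream bases of Tdpoz4, of which the run shows the first 212, were 96.3% identical over 243 aligned bases to those of the second of the 2 RefSeq windows of Tdpoz8, and 64.0% identical over 242 to those of Tdpoz5. These matches describe letters only, and no readout of binding or of transcript starts was used here.

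Libraries held 2305061 to 7893140 counts in genes, so 3 counts, the floor used below, were worth 0.38 to 1.30 CPM (counts per 1000000 gene counts of the library). Replicates correlated at 0.909 to 0.964 over genes, except the tbGFP-positive pair at 6 h at 0.789. All 10 stem cell markers passed the filter, and between fractions Nanog was called higher in the positive one at 0 h (log2 fold change 1.73), Utf1 lower at 6 h (-1.42) and 0 of the 10 at 24 h. All 20 2-cell markers were called higher in the positive fraction at each time. Their summed levels were 49383 to 57720 CPM in the positive and 36.9 to 67.3 CPM in the negative libraries at 0 h. The sort used a 2-cell reporter and the list was chosen with earlier results known, so these calls were largely fixed beforehand. Of all tested genes, 6.66, 6.92 and 5.35% were called higher and 0.449, 5.22 and 0.113% lower at 0, 6 and 24 h. Egg markers (7 of 14 tested) had 0 calls between fractions, as had fibroblast markers (4 of 8 tested, summed level 4.09 to 25.4 CPM), while trophectoderm markers (5 of 8 tested) had 1, 2 and 0 called higher at 0, 6 and 24 h.

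Before sorbitol, Tdpoz transcripts were close to limited to the positive fraction. The sum of the 5 genes was 0.434 and 0.545 CPM in the 2 negative libraries and 1210.1 and 1491 CPM in the 2 positive ones, that is 0.121 and 0.149% of the gene counts of the positive libraries. The ratio of the group means was 2760, which rests on 5 counts in the negative group, all of Tdpoz4. Since the sort used a 2-cell reporter, the fractions were chosen to differ in that program. In bulk samples such as these, fewer cells with the transcript and less transcript per cell cannot be told apart.

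**Figure D1:**
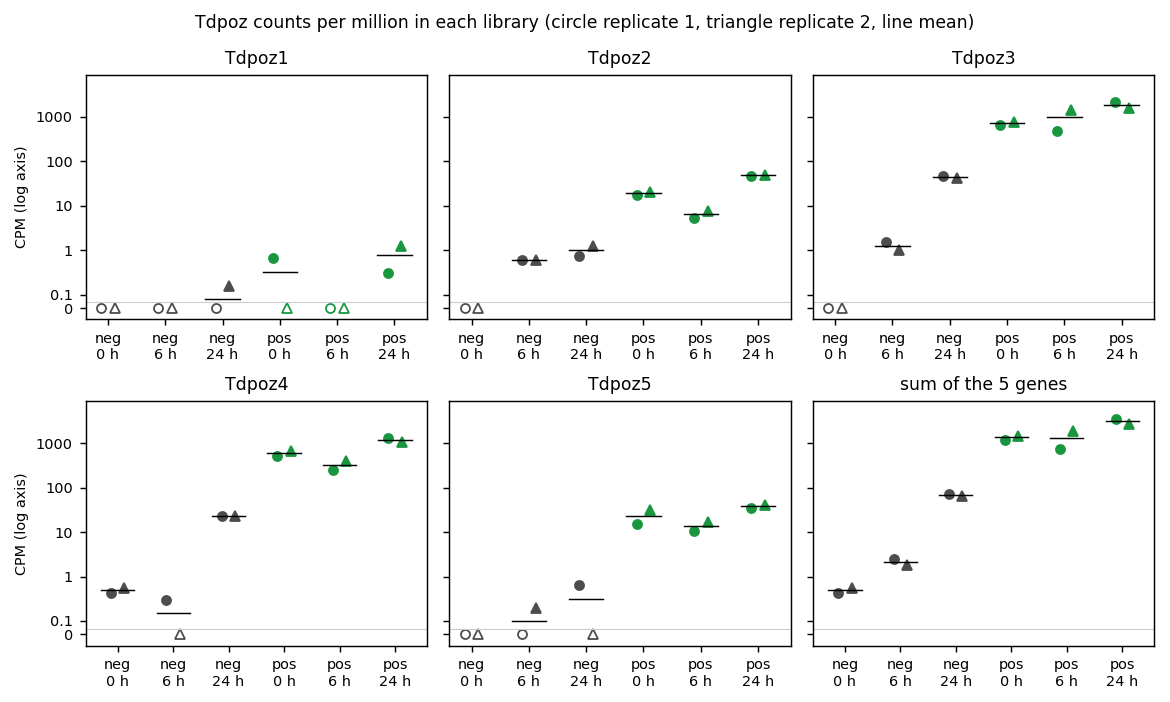
Level of each Tdpoz gene and of their sum in each of the 12 libraries, in CPM on a log axis, by fraction and hours of sorbitol; circles are replicate 1, triangles replicate 2, lines the mean of the 2, and open symbols at the bottom libraries at 0. The sum lay at 0.434 and 0.545 in the negative libraries at 0 h, at 71.3 and 65.5 at 24 h, and between 748 and 3541 in the 6 positive libraries.

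Tdpoz3 had 0 counts in both negative libraries at 0 h and stood at 665 and 760 CPM in the positive ones, at least 2290-fold higher when set against 3 counts over the negative group (adjusted p = 4.73e-07). Tdpoz4 stood at 0.434 and 0.545 CPM in the negative and 511 and 680 CPM in the positive libraries, a ratio of 1217 (log2 fold change 10.55 ± 0.43 SE, adjusted p = 9.3e-11). That ratio rests on 5 counts in the negative group. Tdpoz2 was at 0 and 0 against 17.9 and 20.1 CPM, at least 61.1-fold higher (adjusted p = 1.44e-06). These genes had no overlap between fractions, and neither did Tdpoz5, at 0 and 0 against 15.4 and 31.5 CPM, at least 75.4-fold higher (adjusted p = 4.25e-05). So 4 of the 4 tested members were called higher at 0 h, where 6.66% of all tested genes were. However, a gene counted almost only in the positive fraction passed the filter through that fraction and had to differ. How many of all tested genes had no overlap between libraries was not counted, here or in the comparisons below. Tdpoz1 had 16 counts in all 12 libraries, of which 4 fell in positive replicate 1 at 0 h, 2 and 9 in the positive libraries at 24 h and 1 in negative replicate 2 at 24 h.

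The low value of Tdpoz1 has a limit in the annotation. Of its 2 annotated transcripts, 1 had 31 bases on its strand that no other annotated transcript covers, and the other, which held all 16 counts, had 116. In the whole table, 35022 transcripts with no base of their own on the strand made up 25.3% of transcript length and held 0.0059% of the counts. The level of Tdpoz1 can therefore not be set against the other members.

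Per length, the positive fraction at 0 h held on average 648.8 CPM per kb of exon for Tdpoz3, 535 for Tdpoz4, 22.9 for Tdpoz5 and 16.6 for Tdpoz2. The CPM ranges of Tdpoz3 and Tdpoz4 at 0 h overlapped between libraries, and so did those of Tdpoz5 and Tdpoz2. Within each of the 6 positive libraries, however, Tdpoz3 was above Tdpoz4. Both share sequence with near-identical copies, which limits this order. With each gene's closest copy added, it reversed in positive replicate 2 of 0 h, though not in the other positive libraries. That library held 3471 counts of Tdpoz3 and 585 of Gm4982, against 3107 of Tdpoz4 and 1374 of Gm5541. The step from Tdpoz4 to Tdpoz5 was wider than the spread of either gene. Tdpoz3 made up 55.0 and 50.9% of the family's counts in the positive libraries at 0 h, then 65.2 and 77.5% (6 h) and 60.7 and 57.5% (24 h). Tdpoz4 made up 42.2 and 45.6%, 32.7 and 21.2%, and 37.0 and 39.2% at the same times. The 2 genes together thus supplied nearly the whole sum in each positive library, and Tdpoz2 and Tdpoz5 each at most 2.11%. Within a library the ratio of Tdpoz3 to Tdpoz4, both plus-strand genes, was 1.30 and 1.12 at 0 h, then 1.99 and 3.66 (6 h), then 1.64 and 1.47 (24 h; counts set against each other without length). It was 2.10 and 1.796 in the negative libraries at 24 h.

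**Figure D2:**
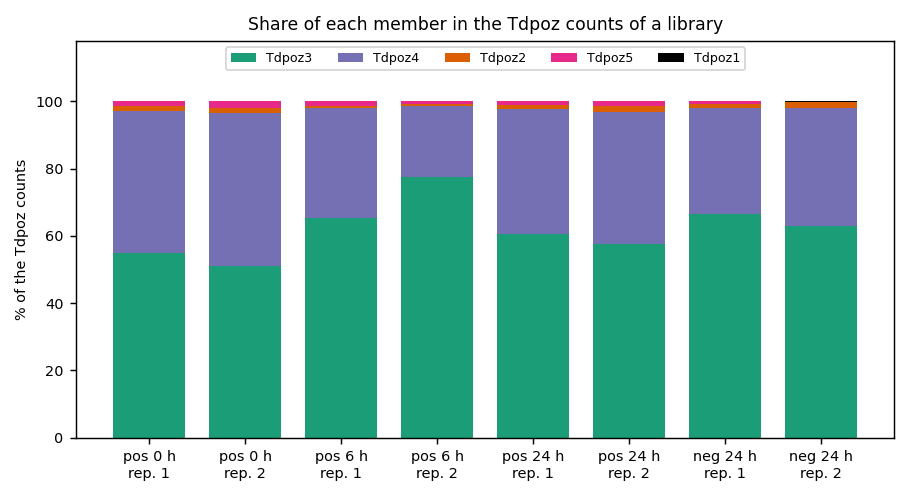
Share of the summed Tdpoz counts (percent) held by each member, in the 6 positive libraries and the 2 negative libraries at 24 h. Tdpoz3 held 50.9 to 77.5% in the positive libraries and Tdpoz4 21.2 to 45.6%.

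After 6 h of sorbitol the gap between fractions was still wide. Tdpoz3 stood at 1.52 and 0.992 CPM in the negative and 487 and 1456 CPM in the positive libraries, a ratio of 774 (adjusted p = 6.99e-07). Tdpoz4 had 0.304 and 0 CPM against 245 and 398 CPM, a ratio of 2033 that rests on 2 counts in the negative group (95% interval from counting alone 562 to 16791, adjusted p = 1.95e-10). Tdpoz2 was at 0.608 and 0.595 against 5.31 and 7.67 CPM, a ratio of 10.8 (log2 fold change 3.43 ± 0.55 SE, adjusted p = 0.000702). This was the narrowest of the gaps at 6 h, and its call was lost when only the compared groups were fitted (3.46, adjusted p = 0.181). Here the libraries of the 4 tested members did not overlap between fractions (Tdpoz1 had 0 counts in all of them). Such separation was not counted over all tested genes. Tdpoz5 was at 0 and 0.198 against 10.3 and 16.5 CPM, a ratio of 169 with 1 count in the negative group (counting interval 29.9 to 6719, adjusted p = 0.000231). All 4 tested members were called higher, against 6.92% of all tested genes. The sum was 2.43 and 1.79 CPM in the negative and 748 and 1878 CPM in the positive libraries, a ratio of 623.

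At 24 h the negative fraction itself held Tdpoz3 and Tdpoz4 transcripts at levels far above the floor. Tdpoz3 stood at 47.4 and 41.2 CPM in the negative and 2149 and 1582 CPM in the positive libraries, a ratio of 42.1 (log2 fold change 5.83 ± 0.48 SE, adjusted p = 6.59e-06). Tdpoz4 stood at 22.6 and 22.9 against 1309.7 and 1079.6 CPM, a ratio of 52.5 (6.15 ± 0.30 SE, adjusted p = 1.4e-09). Tdpoz2 was at 0.76 and 1.25 against 47.7 and 48.5 CPM, a ratio of 47.9 with 14 counts in the negative group (adjusted p = 1.37e-06). In each case both positive libraries lay above both negative ones, which was not counted over all tested genes. Tdpoz5 was at 0.633 and 0 against 34.6 and 41.4 CPM, a ratio of 119.9 (adjusted p = 2.89e-05). That ratio rests on 5 counts in the negative group, all in replicate 1. Again 4 of 4 were called higher, beside 5.35% of all tested genes. The summed level was 71.3 and 65.5 CPM in the negative and 3541 and 2752 CPM in the positive libraries (0.354 and 0.275% of their gene counts), a ratio of 46.0.

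**Figure D3:**
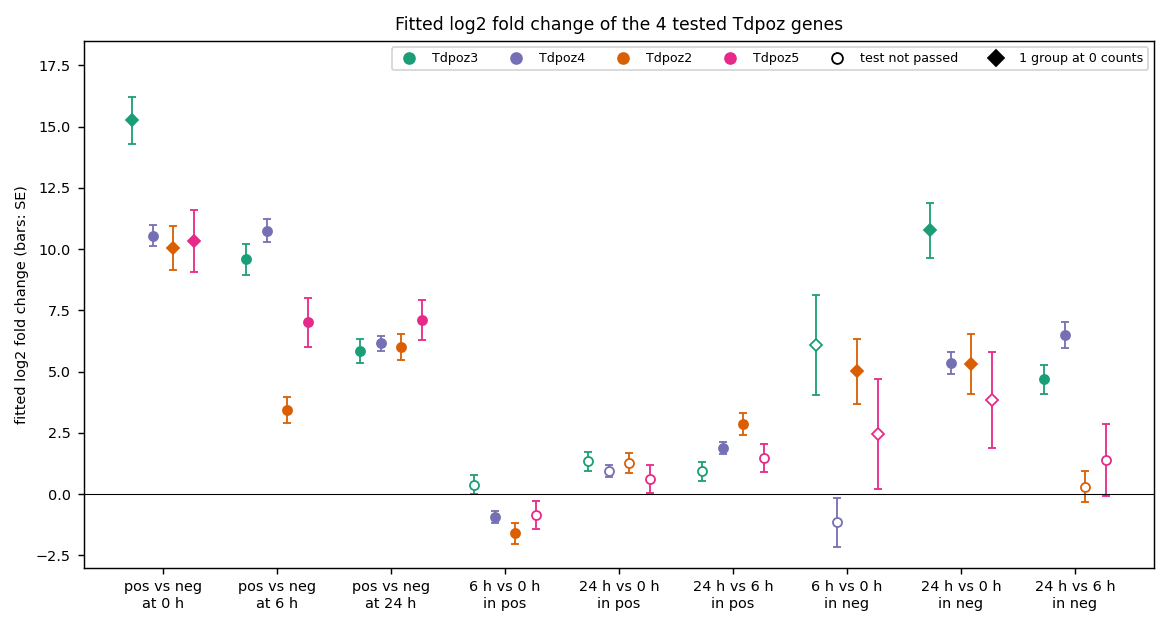
Fitted log2 fold changes of the 4 tested Tdpoz genes with their standard errors, for the comparisons of fractions and of times; filled symbols passed the test at an adjusted p of 0.05, open ones did not, and diamonds mark a comparison with a group at 0 counts, where the fitted value depends on the prior count. Differences between fractions at 24 h sit at 5.83 to 7.12.

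Within the positive fraction, the first 6 h of sorbitol brought calls in 2 members, both lower. Tdpoz4 went from 511 and 680 to 245 and 398 CPM and was called lower (log2 fold change -0.95 ± 0.24 SE, adjusted p = 0.0353). Tdpoz2 went from 17.9 and 20.1 to 5.31 and 7.67 CPM and was called lower (-1.59 ± 0.43 SE, adjusted p = 0.0443). For both genes each library at 6 h lay below each library at 0 h, a separation not counted over all tested genes. Tdpoz3 was at 665 and 760, then 487 and 1456 CPM (0.39 ± 0.39 SE, adjusted p = 0.576), and its libraries overlapped. The direction of Tdpoz3 hung on which positive library of 6 h was kept: without replicate 2 of 6 h it was called lower, at -0.72 (adjusted p = 0.0198), and without replicate 1 of 6 h it was called higher, at 0.89 (adjusted p = 0.0028). Tdpoz5, at 15.4 and 31.5 and then 10.3 and 16.5 CPM, overlapped too (adjusted p = 0.393). The 2 calls in 4 members stood beside 3.76% of all tested genes called lower. Both calls were fragile. Tdpoz4 lost its call without negative replicate 1 of 0 h (adjusted p = 0.0642), positive replicate 2 of 0 h (0.135) or positive replicate 1 of 24 h (0.06), and Tdpoz2 without negative replicate 1 of 0 h or without any 1 of the positive libraries of 0 h or of either fraction at 24 h. The call of Tdpoz2 was also lost with upper-quartile scaling (adjusted p = 0.0531) or library totals (0.0611), and both calls when only the compared groups were fitted (Tdpoz2 0.473, Tdpoz4 0.409).

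From 0 to 24 h in the positive fraction the means of each member were higher, but 0 of the 4 tested members were called by edgeR. Tdpoz3 went from 665 and 760 to 2149 and 1582 CPM, 2.62-fold in the means (log2 fold change 1.33 ± 0.39 SE, adjusted p = 0.243). Tdpoz4 went from 511 and 680 to 1309.7 and 1079.6 CPM, 2.01-fold (0.95 ± 0.24 SE, adjusted p = 0.122). Tdpoz2 went from 17.9 and 20.1 to 47.7 and 48.5 CPM, 2.53-fold (1.28 ± 0.41 SE, adjusted p = 0.261). The libraries of 24 h lay above those of 0 h for these 3 genes and for Tdpoz5, at 15.4 and 31.5 and then 34.6 and 41.4 CPM, 1.62-fold (adjusted p = 0.832). How large a share of all tested genes separated in this way was not counted. Of the 4, 3 had an unadjusted p under 0.05, DESeq2 called 1 (Tdpoz4), and 0.304% of all tested genes were called higher. The count of calls changed with the setting, for reasons not tested. Tdpoz4 was called with no filter on low counts (adjusted p = 0.000307), and Tdpoz3 alone when only the compared groups were fitted (0.0185). The count also differed without the 6 h positive libraries, which are outside this comparison but share in the estimate of spread. Without both of them 3 members were called higher, Tdpoz3 at 1.29 (adjusted p = 4.27e-05), Tdpoz4 at 0.90 (0.00204) and Tdpoz2 at 1.23 (0.021), and Tdpoz5 was not (0.59, adjusted p = 0.47). Leaving out either 1 of them also gave 3.

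Between 6 and 24 h, Tdpoz4 rose 3.72-fold in the positive fraction (log2 fold change 1.90 ± 0.25 SE, adjusted p = 0.000903) and Tdpoz2 7.42-fold (2.87 ± 0.44 SE, adjusted p = 0.00233). These 2 of 4 members stood beside 5.89% of all tested genes called higher. Tdpoz3 differed 1.92-fold (adjusted p = 0.149) and Tdpoz5 2.83-fold (adjusted p = 0.123), and neither passed the test. In all 4 genes the libraries of 24 h lay above those of 6 h. The share of all tested genes that separated in this way was not counted, so this is a description only. Without positive replicate 2 of 6 h all 4 were called higher, and with the compared groups alone neither Tdpoz4 (adjusted p = 0.209) nor Tdpoz2 (0.19) was. The mean of the sum was 1351 ± 199 CPM (SD, n = 2) at 0 h, 1313 ± 799.5 at 6 h and 3147 ± 558 at 24 h, so the libraries of 0 and 6 h overlapped and those of 24 h lay above both. The 2 comparisons with 6 h share the positive libraries of 6 h, and those from 0 h share the ones of 0 h, so their values are given side by side only.

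Across the 6 positive libraries, log levels of Tdpoz4 went most closely with Tdpoz2 (Pearson r = 0.979) and Tdpoz5 (0.939), while Tdpoz3 was at 0.654 with Tdpoz2 and 0.696 with Tdpoz5. These are descriptions over 6 libraries that share depth and sort between genes.

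In the negative fraction Tdpoz3 and Tdpoz4, and less firmly Tdpoz2, rose over 24 h. Tdpoz3 had 0 counts in both libraries at 0 h, then 1.52 and 0.992 CPM (6 h) and 47.4 and 41.2 CPM (24 h), at least 142-fold higher at 24 than at 0 h (adjusted p = 0.000209) and 35.3-fold higher than at 6 h (log2 fold change 4.68 ± 0.59 SE, adjusted p = 0.000638). Tdpoz4 was at 0.434 and 0.545, then 0.304 and 0, then 22.6 and 22.9 CPM, 46.5-fold higher at 24 than at 0 h (5.35 ± 0.46 SE, adjusted p = 4.36e-06). Against 6 h Tdpoz4 was higher by 132 times, with 2 counts at 6 h (counting interval 36.3 to 1095, adjusted p = 2.31e-06). For both genes the negative libraries of 24 h lay above those of the earlier times. This order was not counted over all tested genes. Tdpoz2 was at 0 and 0, 0.608 and 0.595, and 0.76 and 1.25 CPM, at least 3.23-fold higher at 24 than at 0 h (adjusted p = 0.024), and Tdpoz5 at 0 and 0, 0 and 0.198, and 0.633 and 0 CPM, where the libraries overlapped (adjusted p = 0.444).

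From 0 to 24 h, 3 of the 4 tested members were called higher in the negative fraction, beside 2.7% of all tested genes. The call of Tdpoz2 was lost in 6 of the 12 fits that left out 1 library: without negative replicate 1 (adjusted p = 0.0777) or 2 (0.552) of 0 h, negative replicate 1 (0.051) or 2 (0.12) of 24 h, and positive replicate 1 (0.05) or 2 (0.0514) of 24 h. From 6 to 24 h, 2 of 4 were called higher (Tdpoz3 and Tdpoz4), beside 3.62% of all tested genes, and Tdpoz2 (adjusted p = 0.858) and Tdpoz5 (0.658) were not. From 0 to 6 h, 1 of 4 was called higher, beside 3.22%. That 1 was Tdpoz2, with 7 counts at 6 h against 0 at 0 h, at least 1.93-fold higher (adjusted p = 0.0458). Tdpoz3 had 15 counts against 0, at least 4.04-fold higher without passing the test (adjusted p = 0.14), and DESeq2 called Tdpoz3 in place of Tdpoz2. The call of Tdpoz2 was lost without any 1 of the 10 libraries other than the positive ones of 6 h (adjusted p from 0.0585 to 0.546), and with upper-quartile, RLE or library-total scaling or no filter on low counts. Tdpoz3 was called without positive replicate 1 (adjusted p = 0.000398) or 2 (0.000473) of 6 h.

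The gap between fractions was therefore smaller at 24 h than at 0 h for the abundant members. The interaction term was -4.40 ± 0.55 SE on the log2 scale for Tdpoz4 (adjusted p = 0.000345), as the ratio of positive to negative means shrank 23.2 times, from 1217 to 52.5. For Tdpoz3 it was -9.42 ± 1.42 SE (adjusted p = 0.00641), a fitted value that depends on the prior count since the negative group of 0 h was at 0, and the ratio shrank at least 54.4 times. The ratio of the sum shrank 60.01 times. These 2 calls in 4 members stood beside 0.949% of all tested genes called lower. Without negative replicate 2 of 0 h both calls were lost (Tdpoz3 at -9.35, adjusted p = 0.133, and Tdpoz4 at -4.53, adjusted p = 0.0738), and with no filter on low counts that of Tdpoz3 was lost (0.37). The interaction was not called for Tdpoz2 (-4.03, adjusted p = 0.464) or Tdpoz5 (-3.21, adjusted p = 1). From 0 to 6 h edgeR called 0 of 4, beside 0.17% of all tested genes, with 2 members at an unadjusted p under 0.05 and 1 called by DESeq2 (Tdpoz2, in edgeR at -6.60 with adjusted p = 0.0709). Leaving out positive replicate 1 or 2 of 6 h gave 2 calls, Tdpoz2 (adjusted p = 0.0135 and 0.00424) and Tdpoz3 (0.0147 and 0.000459).

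The level in the negative fraction was also set against the positive one as a share, beside that of other 2-cell genes. For the Tdpoz sum it was 0.0362% at 0 h, 0.161% at 6 h and 2.17% at 24 h, and for the summed Zscan4 genes, DNA-binding proteins of the 2-cell state, it was 0.0653, 0.152 and 3.19%. For single members the shares before 24 h rest on few counts. Tdpoz3 went from 0 to 0.129 and 2.37%, and Tdpoz4 from 0.0822 to 0.0473 and 1.90%. Tdpoz2 went from 0 to 9.27 and 2.09%, and Tdpoz5 from 0 to 0.740 and 0.834%. At 6 h the negative group held 15 counts of Tdpoz3, 2 of Tdpoz4, 7 of Tdpoz2 and 1 of Tdpoz5. At 24 h it held 14 of Tdpoz2 and 5 of Tdpoz5. Whether the members differ in course was not tested. At 24 h the 20 2-cell markers ranged from 2.14 to 11.9%. Not all markers were highest at 24 h, as Ddit4l stood at 3.74, 39.3 and 11.9%. Pramel7 was lower at 6 h (1.48%) than at 0 h (3.43%) and highest at 24 h (10.7%). Summed 2-cell markers in the negative libraries stood at 36.9 to 67.3 CPM at 0 h, 126 to 148 CPM at 6 h and 1148 to 1202 CPM at 24 h. Of the 20, 15 were called higher there from 0 to 24 h, beside 2.7% of all tested genes. The part of positive cells left in the negative sort in the rise of Tdpoz3 and Tdpoz4 was not tested.

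**Figure D4:**
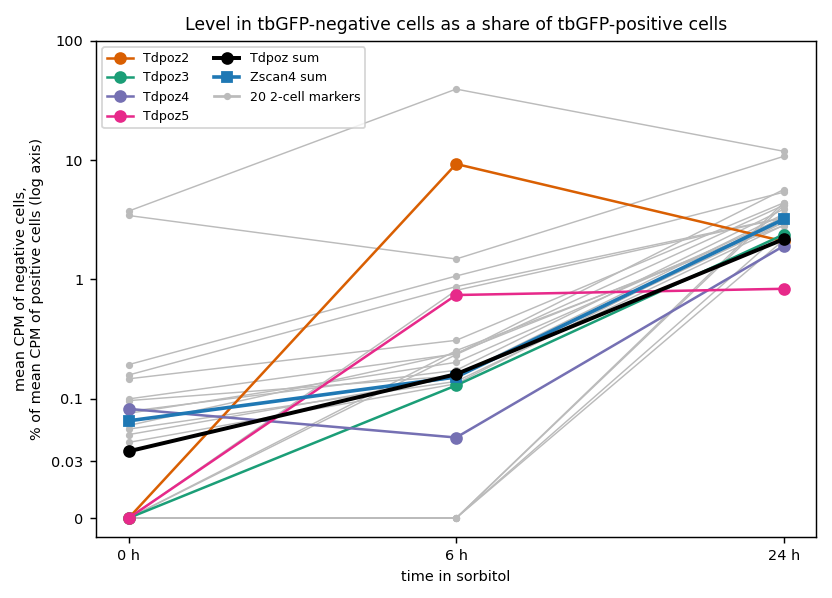
Mean level in the negative fraction as a percent of that in the positive fraction (log axis) at 0, 6 and 24 h of sorbitol, for 4 Tdpoz genes, the family sum, the summed Zscan4 genes and each of the 20 2-cell markers (grey); lines join the times and 0 is drawn at the bottom. The sum went from 0.0362 to 2.17% and the Zscan4 sum from 0.0653 to 3.19%.

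In the positive fraction, the fitted changes of the 4 tested Tdpoz genes from 0 to 24 h were positive without a call, and those of most 2-cell markers were negative. The summed Zscan4 level was 41746 and 48902 CPM at 0 h, then 35788 and 27023 (6 h) and 25014 and 29328 (24 h), whereas the Tdpoz sum was 1210.1 and 1491, 748 and 1878, and 3541 and 2752 CPM. Of the 20 2-cell markers, 0 were called higher and 1 lower by edgeR in that comparison, beside 0.304 and 0.248% of all tested genes. Their median log2 fold change was -0.52 (0.09 over all tested genes), and the 4 tested Tdpoz genes stood at 0.64 to 1.33. The markers with positive values were Arg2 (0.77), Zfp352 (0.65) and Ddit4l (0.42), none of them called. The difference between the family and the markers was not tested. Over all 12 libraries the log level of the Tdpoz sum was most like those of Gm5788 (Pearson r = 0.995), Arg2 (0.994), an arginase, Gm48931 (0.993), Gm44693 (0.993) and Gm5662 (0.992), with a median of -0.175 over all tested genes. Over the 6 positive libraries it was most like Gm30382 (0.997), Rai14 (0.993), Gm12617 (0.991), Gm42899 (0.991) and Gm31904 (0.99), with a median of 0.18. Gm30382, Rai14 and Gm42899 were near the 3-count floor in these libraries, with means at 24 h of 1.86, 2.16 and 0.745 CPM, so their values rest on few counts. Zscan4d was at 0.984 over the 12 libraries and at -0.604 over the 6 positive ones, and Duxf3, the Dux gene, at 0.888 and -0.626. The first set of values mainly reads the difference between fractions, and all of them share library depth.

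The 5 named genes are part of a larger group of copies. In the GENCODE transcripts, 23 further genes were at least 75% identical to a member over at least 500 bases, of which 9 are annotated as protein coding and 14 as pseudogenes, and 20 lie on chromosome 3 with the members. Of these 23 related genes, 21 had counts and 20 were tested. Between fractions 18, 16 and 19 of the 20 were called higher at 0, 6 and 24 h and 0 lower, with median log2 fold changes of 11.16, 8.75 and 6.69. The shares of all tested genes called higher were 6.66, 6.92 and 5.35%. As for the members, a copy counted almost only in the positive fraction passed the filter through that fraction and had to differ. The related genes share reads with the members and with each other, so they are not independent of the values above. The most abundant were Gm9113, at a mean of 451 CPM at 0 h and 804 CPM at 24 h in the positive fraction, and Gm5541, the closest copy of Tdpoz4, at 279 and 600 CPM.

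From 0 to 24 h in the positive fraction the fold change was positive for 20 of the 20 related genes (median 0.86). Only 1 was called higher, beside 0.304% of all tested genes. From 0 to 6 h their median was -0.63 with 1 called lower, beside 3.76% of all tested genes. From 6 to 24 h 10 were called higher, beside 5.89%. In the negative fraction 11 of 20 were called higher from 0 to 24 h, beside 2.7%. The gap between fractions was called lower at 24 than at 0 h for 4, beside 0.949%. Members and related genes together stood at 3.47 and 2.86 CPM in the negative libraries at 0 h, then 6.23 and 10.1 (6 h) and 145 and 126 (24 h). In the positive libraries they stood at 3082 and 4167, 1870.5 and 4038, and 8598 and 6853 CPM, which was 0.86 and 0.685% of the gene counts at 24 h. The order of the groups was that of the sum over the 5 members.

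**Figure D5:**
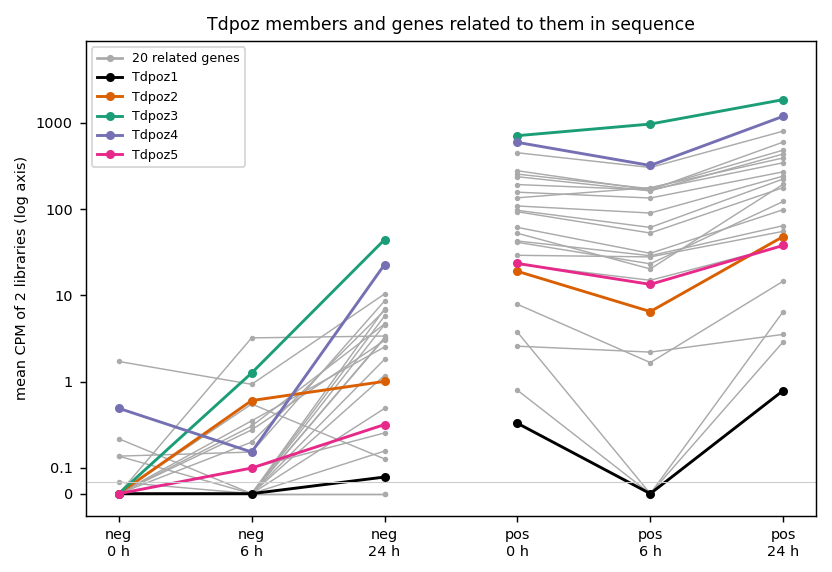
Mean level in CPM (log axis, 2 libraries a group) of the 5 Tdpoz genes (coloured or black) and of the 20 tested genes related to them in sequence (grey); lines join the times within a fraction, and groups at 0 are drawn at the bottom. Gm9113, at 451 in the positive fraction at 0 h and 804 at 24 h, was the most abundant related gene.

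Among the genes annotated within 200 kb of the family (chr3:93451542-94161314), calls fell mainly on related copies. Of the 34 neighbours outside the family, 24 were tested. In the positive fraction 16, 13 and 15 were called higher at 0, 6 and 24 h, beside 6.66, 6.92 and 5.35% of all tested genes. Related genes were 14 of the 24, and 14, 12 and 14 of them were called higher. Of the other 10 tested neighbours, 2 were called higher at 0 h, S100a11, a calcium-binding protein (log2 fold change 1.26, adjusted p = 0.0318), and Gm37430, and 1 at 6 h and at 24 h, again Gm37430. Both were named after their values were seen.

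Genes of the cullin-3 ubiquitin ligase, the complex that Spop joins, were counted in the same comparisons. Of 18 listed, 14 were tested. At 0 h 1 was called higher in the positive fraction and 0 lower, at 6 h 1 higher and 3 lower, and at 24 h 1 higher and 0 lower. Of all tested genes, 6.66, 6.92 and 5.35% were called higher at these times and 0.449, 5.22 and 0.113% lower. The gene called higher was each time Cand1, which exchanges the substrate adaptors of cullins. It stood at 1208 and 1353 CPM in the negative and 2699 and 3252 CPM in the positive libraries at 0 h (1.65 ± 0.14 SE, adjusted p = 4.2e-07). The 3 lower at 6 h were Cops5, a subunit of the signalosome that removes Nedd8 from cullins (-2.97), Rbx1, the RING subunit (-1.16), and, outside the rule for named genes, Btbd1, a BTB adaptor (-1.10).

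Among other genes with a TRAF domain, Traf1 was called higher in the positive fraction at each time. Of 11 listed, 9 were tested, and 2 were called higher in the positive fraction at 0 h, Traf1 and Traf2, adaptors of tumour necrosis factor receptors, where 6.66% of all tested genes were. Traf1 stood at 0.868 and 0.545 CPM in the negative and 71.9 and 63.7 CPM in the positive libraries (log2 fold change 7.13 ± 0.56 SE, adjusted p = 1.5e-07). It was also called higher at 6 h, on 2 counts in the negative group, and at 24 h (4.0), rose in the negative fraction from 0 to 24 h (2.65), to 5.57 and 2.81 CPM, and its gap between fractions narrowed by 24 h (-3.14, adjusted p = 0.048). Mep1b, a meprin subunit, also rose in the negative fraction, from 13.9 and 15.5 to 77.7 and 71.9 CPM (2.28). Traf2 stood at 2.60 and 6.95 against 51.4 and 56.2 CPM at 0 h (3.81 ± 0.74 SE, adjusted p = 0.0028).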

How the data were processed

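The deposited files hold whole-number read counts per transcript, made by the authors with HISAT2 and featureCounts on mm10 (FastQC and DESeq2 are also listed), per the submitters' processing notes, from a stranded total RNA kit, per the labels' protocols. Versions, the strand setting and the treatment of multiply matching reads are not given in the sources used here. Of 142446 transcripts, 141536 matched GENCODE M21 and were summed to 55266 genes; the other 910 (0.0606 to 0.0903% of counts) were left out. Members and gene lists were chosen with earlier results of these data known.

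Gene counts of all 12 libraries were fitted with edgeR 4.0.16 (R 4.3.3; TMM scaling, quasi-likelihood F test, 1 mean per group, common dispersion 0.208), with Benjamini-Hochberg adjustment over the 19384 tested genes within each of 11 comparisons and a threshold of 0.05. The scripts were tested on simulated data. CPM used gene-count totals, ratios used group means of CPM, and a group at 0 was set to 3 counts over the group. Intervals are exact at 95%, treat each count as independent and cover counting error only. Of the transcript counts from 1 to 20, 67.37% were even. Whether both reads of a pair were counted is not given in the sources used here. If they were, the intervals are too narrow and the floor of 3 counts stands for fewer fragments, which was not tested. Named besides the members are neighbours within 200 kb called at 0 h, the 5 most alike genes by Pearson r of log2(CPM + 0.5), and called genes of the fixed lists with the largest and smallest fold changes. Related copies were added after the data were seen. Alternatives were other scalings, filters, DESeq2 1.42.0, a replicate block, the compared groups alone, transcripts in place of genes, and leaving out libraries.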

Additional observations from a re-analysis of the deposited data

Results flagged for a closer look

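For 2 members the gap between the tbGFP-positive and tbGFP-negative fractions at 24 h differed from that at 0 h by a test of the interaction itself (edgeR's quasi-likelihood test, adjusted over all tested genes). The change of the gap was -9.42 on the log2 scale for Tdpoz3, whose negative libraries at 0 h had 0 counts, and -4.40 for Tdpoz4, whose negative libraries went from 0.434 and 0.545 CPM at 0 h to 22.6 and 22.9 CPM at 24 h. In both genes the level rose in the negative fraction, while the difference between 24 and 0 h in the positive fraction did not pass the test with all libraries. It passed for both without the positive libraries of 6 h (adjusted p = 4.27e-05 for Tdpoz3 and 0.00204 for Tdpoz4), and for Tdpoz4 with DESeq2. Both interaction calls were lost without negative replicate 2 of 0 h (adjusted p = 0.133 and 0.0738).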

How the results depend on the processing

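Of 944 alternative values of the 44 member fold changes, 873 stayed on their side of the threshold (with the sign of any called value kept), 44 lost a call, 26 gained one and 1 reversed (Tdpoz3 from 0 to 6 h in the positive fraction, -0.72 without positive replicate 2 of 6 h, against 0.89, called higher, without replicate 1 of 6 h). Between fractions 4 members were called under every setting run at 0 and 24 h, and 3 to 4 at 6 h (Tdpoz2 lost with the compared groups alone). From 6 to 24 h in the negative fraction 2 were called under every setting, and from 0 to 24 h 2 to 3. From 0 to 6 h in the positive fraction the count was 1 with upper-quartile scaling, 1 with library totals, 1 with the replicate block and 0 with the compared groups alone (0 to 3 leaving out a library). From 0 to 24 h it was 1 with no filter, 1 with the compared groups alone (Tdpoz3), 1 with DESeq2 and 3 without both positive libraries of 6 h (0 to 3 leaving out 1). From 6 to 24 h it was 0 with the compared groups alone (2 to 4). From 0 to 6 h in the negative fraction it was 0 with upper-quartile or RLE scaling, library totals, no filter, the replicate block, the compared groups alone or transcripts, and 2 without both positive libraries of 6 h (0 to 2). The gap at 6 against 0 h gave 1 with no filter and 1 with DESeq2 (0 to 2), and that at 24 against 0 h 1 with no filter (0 to 2). The ratio of the sums between fractions was 3741 with TMM-scaled CPM and 1145 with related genes added at 0 h, and 62.3 and 57.1 at 24 h. In the negative fraction it was 2.58 from 0 to 6 h and 42.7 from 0 to 24 h with related genes, and 24.5 (TMM) and 16.6 (related genes) from 6 to 24 h. The related-gene alternative was chosen after seeing the data, and apart from fewer samples or genes the cause was not tested. Same-numbered libraries did not deviate together (15 pairs of groups, r from -0.04 to 0.03, 0 over 0.1), so the numbers do not pair them, and the replicate block changed no other count. Other scalings moved the median of all genes by -0.42 to 0.40 on the log2 scale. Low counts limit Tdpoz1, all members in the negative fraction before 24 h, and Tdpoz2 and Tdpoz5 in that fraction at 24 h.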
